A study of Homo sapiens with 18 samples.

Results

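The genes described here are the receptors and ligands of the ephrin, semaphorin and SLIT guidance systems in 2 human PDAC cell lines. They were selected by gene symbol alone: every row of the expression table named as an Eph receptor, an ephrin, a class 3 to 7 semaphorin, a plexin, a neuropilin, a SLIT or a ROBO receptor was a member. This gave 60 of the 40266 symbols, namely 9 EphA and 5 EphB receptors, 5 ephrin-A and 3 ephrin-B ligands, 7 class 3 and 13 class 4 to 7 semaphorins, 9 plexins, 2 neuropilins, 3 SLITs and 4 ROBO receptors. RNA-seq was available for 18 libraries in 6 groups of 3, since Panc1 and Panc89 were each profiled as parental cells, as a Holoclone and as a Paraclone. Panc1 derives from a primary tumour and served as the mesenchymal model, whereas Panc89 derives from a lymph node metastasis and served as the epithelial model. No group had been given a drug or a genetic change. Holoclone and Paraclone cells are named after the compact or scattered shape of the colonies they form, and each of the 4 clonal groups goes back to single-cell cloning. Each clonal group therefore stands for 1 selected clonal line, and its 3 replicates are RNA of separate passages, so that p-values measure the spread between passages and not between independently derived clones. Fewer cells expressing a gene and less RNA per cell cannot be told apart in such bulk libraries.

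Guidance genes encode ligands and receptors that help to steer growing axons and vessels. Eph receptors are the largest family of receptor tyrosine kinases and bind ephrins on neighbouring cells: ephrin-A ligands are tethered by a lipid anchor, ephrin-B ligands span the membrane, and both cells of a contact can receive a signal. Class 3 semaphorins are secreted and mostly bind a neuropilin that forms a complex with a plexin, whereas most semaphorins of the other classes are membrane-bound and bind plexins directly. Plexins act on small GTPases and the cytoskeleton. SLIT proteins are secreted ligands of ROBO receptors, and all these systems have been studied in carcinomas, where they affect cell adhesion, migration and nerve invasion.

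The values are TPM (a share of all transcripts that is scaled for gene length, so that levels of different genes can be set side by side), and fold changes are differences of the group means of log2(TPM + 1), given with their standard error where ± follows them. A value in parentheses after a gene, without a unit, is such a log2 fold change. On this scale the change of genes near or below 1 TPM is understated. Replicates of a group correlated across genes with coefficients between 0.954 and 0.992. The 5 mesenchymal markers summed to 4302 to 5181 TPM in parental Panc1, 2053 to 2890 TPM in Panc1 Holoclone and 3677 to 5137 TPM in Panc1 Paraclone, and to 5.40 to 8.01 TPM in parental Panc89, 7.68 to 13.6 TPM in Panc89 Holoclone and 12.7 to 31.6 TPM in Panc89 Paraclone, so that the sum separated the lines and was lower in the Panc1 Holoclone than in the other Panc1 groups. VIM stayed below 1 TPM in all Panc89 libraries. The summed level of 6 epithelial markers overlapped between the lines (2760 to 5144 TPM in Panc1 and 2860 to 4475 TPM in Panc89), although CDH1 was at 0.721 to 1.83 TPM in parental Panc1 and at 73.3 to 77.9 TPM in parental Panc89. Of 4 endothelial markers, PECAM1 (53.2 to 64.7 TPM) and CDH5 (1.99 to 5.07 TPM) were seen in parental Panc89, while VWF and TEK stayed below 1 TPM there. The summed endothelial level was 55.3 to 69.1 TPM in parental Panc89, 1.03 to 2.18 TPM in Panc89 Holoclone, 3.01 to 9.01 TPM in Panc89 Paraclone and at most 0.281 TPM in Panc1. The 4 immune markers summed to 3.89 to 5.13 TPM in parental Panc89, 2.28 to 5.12 TPM in Panc89 Paraclone and less than 1 TPM in all other groups, and CD14 provided most of it. The 4 neuronal and Schwann cell markers summed to 2.02 to 2.70 TPM in Panc1 Paraclone, nearly all from SNAP25, and to at most 0.525 TPM elsewhere. The 4 fibroblast and stellate cell markers, mainly ACTA2, summed to 1.31 to 2.41 TPM in parental Panc1, 3.44 to 4.63 TPM in Panc1 Holoclone, 10.9 to 18.7 TPM in Panc1 Paraclone, 7.75 to 10.8 TPM in parental Panc89, 11.3 to 28.0 TPM in Panc89 Holoclone and 8.44 to 10.5 TPM in Panc89 Paraclone. The part of these differences in the comparisons below was not tested.

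Promoter sequences were available for 54 of the 60 genes (RefSeq, GRCh38.p14, 250 bases before to 50 bases after an annotated start). The 4 shown here, chosen after their values were seen, are examples of genes whose levels did not overlap between the 9 libraries of each line: EPHA1, EFNB2 and NRP2 were higher in all Panc89 libraries (8.08 TPM or more against at most 0.148 TPM in Panc1 for EPHA1, and 21.6 TPM or more against at most 5.46 TPM for EFNB2), and SLIT3 was higher in all Panc1 libraries. Capitals mark the E-box CACCTG or its reverse complement CAGGTG, a motif known to be bound by ZEB and SNAIL factors, which was searched on both strands.
EPHA1 (chr7:143408807-143409106, minus strand): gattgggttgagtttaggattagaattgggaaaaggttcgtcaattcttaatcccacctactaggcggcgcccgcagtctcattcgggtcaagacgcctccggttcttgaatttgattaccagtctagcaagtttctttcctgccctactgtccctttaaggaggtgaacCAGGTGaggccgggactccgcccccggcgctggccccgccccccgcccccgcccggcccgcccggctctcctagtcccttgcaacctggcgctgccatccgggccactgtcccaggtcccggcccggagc
EFNB2 (chr13:106535613-106535912, minus strand): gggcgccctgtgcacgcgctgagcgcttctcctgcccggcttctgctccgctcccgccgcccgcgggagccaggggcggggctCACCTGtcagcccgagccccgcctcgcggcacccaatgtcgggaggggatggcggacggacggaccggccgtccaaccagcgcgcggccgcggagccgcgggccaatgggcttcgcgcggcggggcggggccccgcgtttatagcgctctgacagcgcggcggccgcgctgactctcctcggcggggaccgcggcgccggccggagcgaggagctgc
NRP2 (chr2:205682251-205682550, plus strand): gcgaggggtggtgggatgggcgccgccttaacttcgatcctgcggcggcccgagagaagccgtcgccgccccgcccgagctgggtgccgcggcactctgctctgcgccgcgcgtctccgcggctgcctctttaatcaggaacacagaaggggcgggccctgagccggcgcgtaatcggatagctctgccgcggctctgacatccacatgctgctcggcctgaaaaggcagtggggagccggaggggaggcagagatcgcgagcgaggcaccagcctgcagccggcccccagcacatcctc
SLIT3 (chr5:169301090-169301389, minus strand): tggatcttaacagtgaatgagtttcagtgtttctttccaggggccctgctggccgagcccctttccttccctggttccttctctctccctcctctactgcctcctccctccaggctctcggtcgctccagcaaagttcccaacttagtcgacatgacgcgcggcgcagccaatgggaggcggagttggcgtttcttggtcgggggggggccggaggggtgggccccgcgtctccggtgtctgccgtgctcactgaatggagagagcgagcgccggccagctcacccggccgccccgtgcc
The windows of EPHA1 and EFNB2 hold 1 match each, and those of NRP2 and SLIT3 hold 0. Matches were found in 17 of the 85 promoters of guidance genes (20.0%) and in 20.6% of the 35116 promoters of all genes. Among guidance genes with a promoter, 5 of the 18 that were higher in parental Panc89 and 3 of the 14 that were lower had a match in any of their promoters. These counts are per gene, and some genes have several promoters, so the shares per promoter are no background for them. CG dinucleotides numbered 21 in EPHA1, 49 in EFNB2, 33 in NRP2 and 22 in SLIT3, with a median of 21 over the guidance gene promoters and of 14 over all promoters.

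All 60 guidance genes were detected in at least 1 library. A level of 1 TPM in at least 3 libraries was required for testing, which 48 of them reached. SEMA6D reached 1 TPM only in the 3 Panc89 Holoclone libraries, and EPHB3 only in the 3 parental Panc89 libraries. Both thus entered testing through the group where they were high, and their calls involving that group depend on this filter. EPHA1, EPHA6, PLXNA2, SEMA4A, SEMA5A, SEMA6A and SLIT2 reached 1 TPM only in Panc89 libraries. EFNA2, EPHB6, SEMA4G, SEMA6C and SLIT3 reached it only in Panc1 libraries. These genes entered testing through the line where they were high, and their calls between the lines depend on the filter too. The 12 genes that were not tested were the receptors EPHA3, EPHA5, EPHA8, EPHB1, ROBO2 and ROBO4, the ligands SLIT1, SEMA3D, SEMA3G and SEMA5B, and the plexins PLXNA4 and PLXNC1. EPHA3 came closest to testing, with 1.39, 1.34 and 0.856 TPM in Panc89 Holoclone and at most 0.305 TPM in every other group. SEMA3D showed the same distribution at a lower level, with 0.773, 0.94 and 1.04 TPM in Panc89 Holoclone and at most 0.407 TPM elsewhere. ROBO4, a receptor typical of endothelial cells, lay between 0.0265 and 0.905 TPM in all libraries, parental Panc89 with its PECAM1 included (0.121 to 0.22 TPM). The mean level was 1 TPM or more for 38 of the 60 genes in parental Panc1, 37 in Panc1 Holoclone, 35 in Panc1 Paraclone, 38 in parental Panc89, 42 in Panc89 Holoclone and 36 in Panc89 Paraclone.

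**Figure D1:**
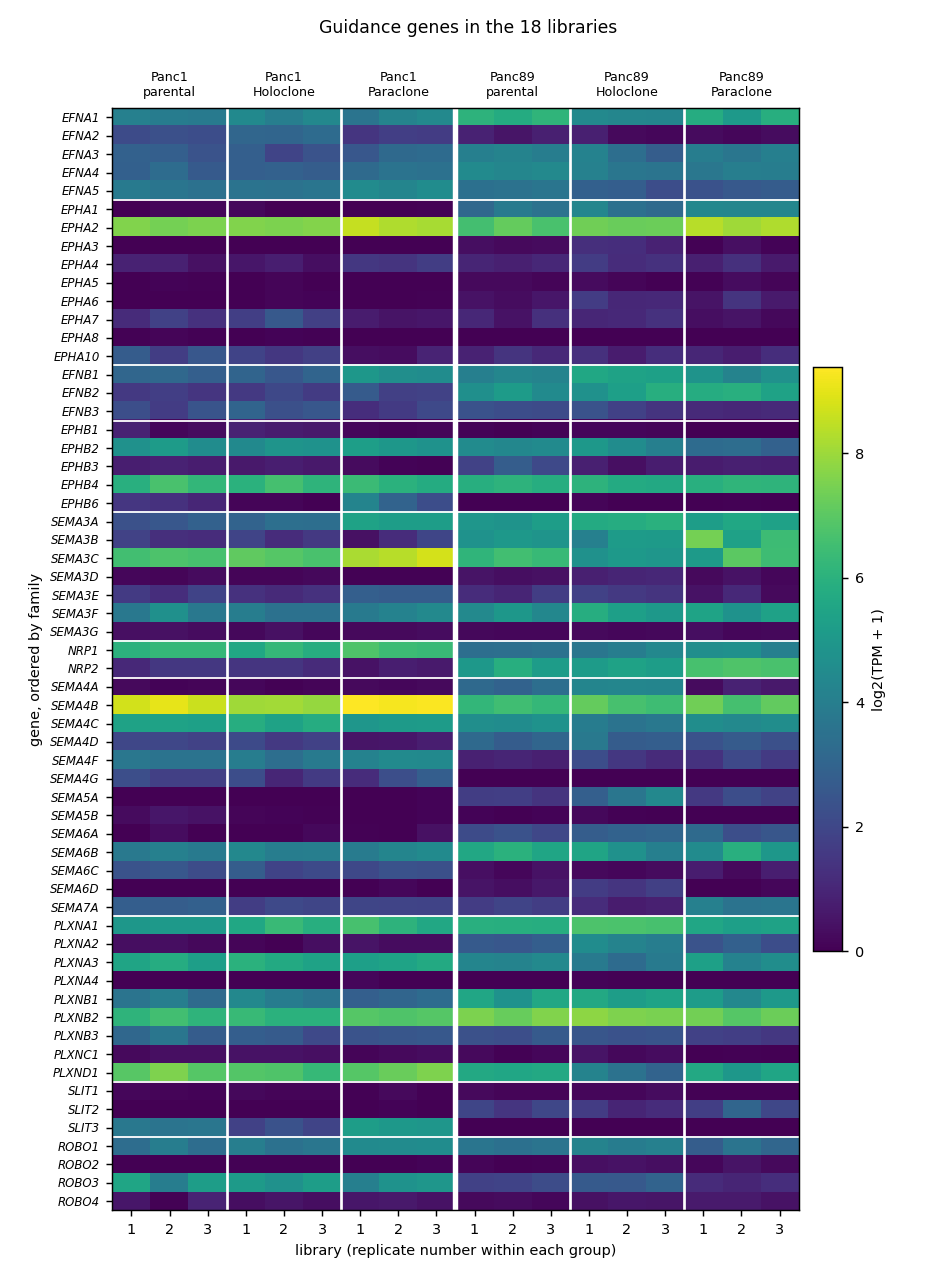
Heatmap of log2(TPM + 1) for the 60 guidance genes (rows, ordered by family and separated by white lines) in the 18 libraries (columns, 3 per group), with brighter colours for higher levels. EPHA2, SEMA4B, PLXNB2 and EPHB4 were high in all groups, and NRP2, EFNB2, EPHA1, SLIT3 and SEMA4G show a break between the 9 Panc1 and the 9 Panc89 libraries.

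A few genes provided most of the mRNA of each family. EPHA2 made up 88.7% to 99.1% of the summed EphA level and EPHB4 61.9% to 88.0% of the summed EphB level, depending on the group. The EphA sum was 189 ± 12 TPM in parental Panc1, 199 ± 5.67 TPM in Panc1 Holoclone and 325 ± 47.1 TPM in Panc1 Paraclone (mean ± SD, n = 3). The same sum was 127 ± 28, 174 ± 12.7 and 325 ± 36 TPM in parental, Holoclone and Paraclone cells of Panc89. Both Paraclones thus had the highest EphA level of their line. SEMA4B provided 44.1% to 88.8% of the class 4 to 7 semaphorins, and the plexin sum was led by PLXND1 in every Panc1 group and by PLXNB2 in every Panc89 group. The ROBO sum was led by ROBO3 in Panc1 and by ROBO1 in Panc89, and the SLIT sum by SLIT3 in Panc1 and SLIT2 in Panc89.

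**Figure D2:**
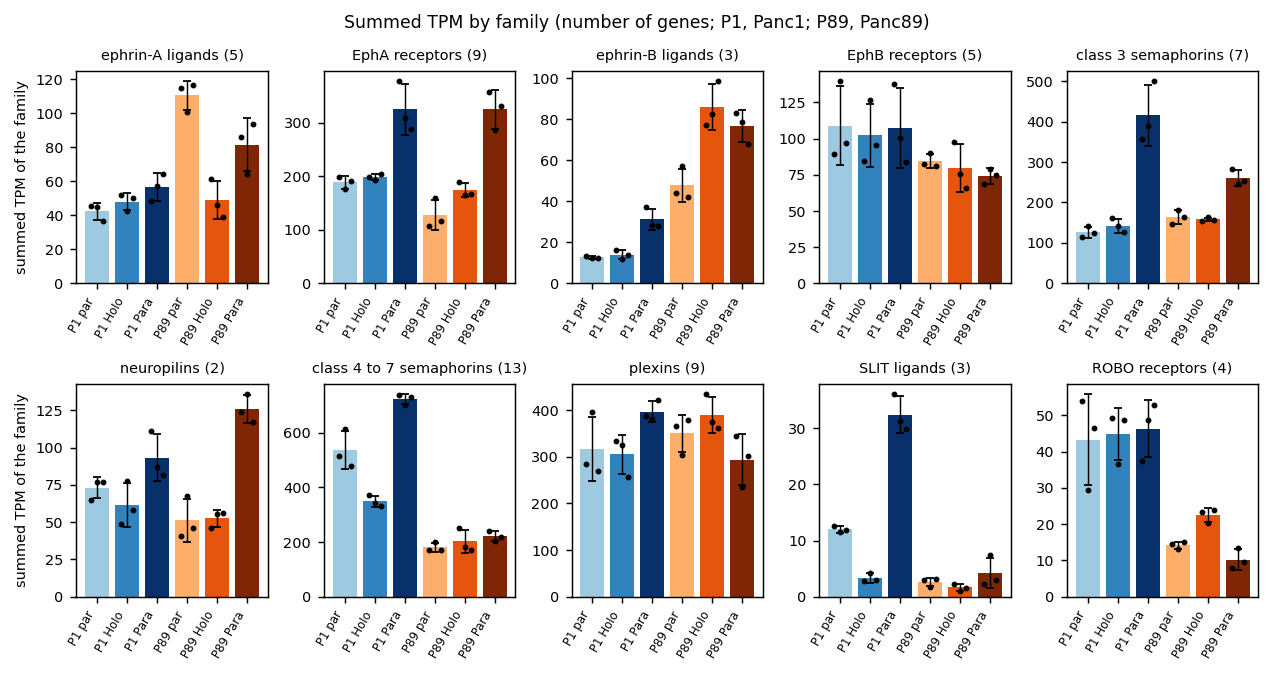
Summed TPM of each of the 10 guidance families in the 6 groups: bars are means, error bars SD and points the 3 libraries, and the number of genes is in each title. The EphA and class 3 semaphorin sums of each line were highest in its Paraclone, and the class 4 to 7 semaphorin, SLIT and ROBO sums of parental cells were higher in Panc1 than in Panc89.

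The first comparison asks how the parental lines differ. Of the 48 genes tested, 37 (77.1%) passed an adjusted p under 0.05, against 66.0% of all 16093 genes. In Panc89, 21 were higher (27.5% of all genes were) and 16 lower (38.5% of all genes). The groups did not overlap for 39 of the 48 (73.3% of all genes). The median log2 fold change was 0.18 over the guidance genes and -0.18 over all genes. All 12 tested class 4 to 7 semaphorins, all 7 tested plexins and both neuropilins differed, with members going either way in each of these families. Upper quartile and median-of-ratios scaling moved the median of all genes to 0.07 and 0.02 and gave 23 higher and 16 lower guidance genes each. Among called genes, 56.8% of guidance genes and 41.6% of all genes were higher in Panc89 as reported. Under these scalings 59% of guidance genes were higher in each, against 54.7% and 51.9% of all genes. None of the 37 calls was lost under either scaling or without any 1 of the 6 parental libraries.

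Among the ephrin-A ligands, 3 of 5 were higher and 1 lower in parental Panc89. EFNA1, the main ligand of EPHA2, was at 16.1, 14.5 and 13.2 TPM in parental Panc1 and at 66.7, 53.7 and 69.1 TPM in parental Panc89 (log2 fold change 2.04 ± 0.22, adjusted p = 9.07e-07). EFNA3 (1.36) and EFNA4 (1.44) were higher as well. These 3 genes are neighbours on chromosome 1 (GRCh38, 155063737 to 155134899), and EFNA3 and EFNA4 share exons with the readthrough transcript EFNA4-EFNA3, so that the split of reads between them is uncertain. EFNA2 was lower (3.64 against 0.701 TPM, log2 fold change -1.46 ± 0.17, adjusted p = 1.37e-06). EPHA2 itself, at 191, 169.8 and 184 TPM in parental Panc1 and 95.2, 143 and 101 TPM in parental Panc89, was lower in Panc89 (log2 fold change -0.70 ± 0.14, adjusted p = 4.34e-04), so that this receptor and its main ligand differed in opposite directions between the lines.

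EPHA1 marked Panc89. It was at 0, 0.112 and 0.117 TPM in parental Panc1 and at 8.08, 13.1 and 10.5 TPM in parental Panc89 (log2 fold change 3.4 ± 0.22, adjusted p = 1.65e-09). No Panc1 library exceeded 0.148 TPM and no Panc89 library fell below 8.08 TPM. EPHB6, an Eph receptor without kinase activity, differed in the opposite direction between the parental lines at a low level, with 1.78, 1.52 and 1.02 TPM in parental Panc1 and 0.0103, 0 and 0.0115 TPM in parental Panc89 (log2 fold change -1.26 ± 0.32, adjusted p = 0.00285). It did not mark Panc1, since the Panc1 Holoclone (0.0122 to 0.10 TPM) overlapped the Panc89 libraries (0 to 0.101 TPM). EPHA10, which also lacks kinase activity, was lower in Panc89 (-1.2) and EPHB3 higher (1.42). The EPHB3 call depends on the filter, which this gene passed only through the parental Panc89 libraries. EPHB2 (log2 fold change -0.38 ± 0.22, adjusted p = 0.142) and EPHB4 (log2 fold change -0.35 ± 0.20, adjusted p = 0.143), the most abundant EphB receptors, did not pass the threshold.

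Of the 3 ephrin-B ligands, 2 were higher in Panc89. EFNB2, the ligand of EPHB4, was at 1.97, 2.35 and 1.72 TPM in parental Panc1 and at 24.2, 34.5 and 21.6 TPM in parental Panc89 (log2 fold change 3.18 ± 0.28, adjusted p = 8.11e-08). EFNB1 was at 7.66, 8.05 and 6.11 TPM and 15.7, 18.9 and 17.2 TPM (log2 fold change 1.15 ± 0.18, adjusted p = 4.24e-05). The groups did not overlap for either gene, whereas EFNB3 did not pass the threshold (0.13, adjusted p = 0.679).

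The neuropilins differed in opposite directions between the lines. NRP1, the co-receptor of SEMA3A and VEGFA, was at 63.9, 75.1 and 75.4 TPM in parental Panc1 and at 9.37, 9.87 and 10.7 TPM in parental Panc89 (log2 fold change -2.72 ± 0.21, adjusted p = 1.37e-08). NRP2, which binds SEMA3F and VEGFC, was at 1.14, 1.84 and 1.88 TPM and 31.1, 57.7 and 35.4 TPM (log2 fold change 3.98 ± 0.19, adjusted p = 6.04e-11). All Panc1 libraries were above all Panc89 libraries for NRP1 and below them for NRP2. As a share of both neuropilins, NRP2 made up 1.75% to 2.44% in parental Panc1 and 76.8% to 85.4% in parental Panc89. The summed neuropilin level was 73.1 ± 6.97 TPM in parental Panc1 and 51.4 ± 14.3 TPM in parental Panc89.

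Class 3 semaphorins did not move as a single group. SEMA3A, a ligand of NRP1, was at 4.04, 4.9 and 6.54 TPM in parental Panc1 and 29.2, 27 and 36.4 TPM in parental Panc89 (log2 fold change 2.38 ± 0.17, adjusted p = 4.47e-09). SEMA3B was at 2.59, 1.38 and 1.29 TPM and 26.6, 30.8 and 27.7 TPM (log2 fold change 3.44 ± 0.45, adjusted p = 6.18e-06). Both were higher in Panc89 without overlap. SEMA3C, the most abundant of the class in both parental lines, was at 101 and 80.3 TPM on average and did not pass the threshold (log2 fold change -0.33 ± 0.33, adjusted p = 0.391), nor did SEMA3E (adjusted p = 0.302) and SEMA3F (adjusted p = 0.141).

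Of the membrane-bound semaphorins, SEMA4A, SEMA4D, SEMA5A, SEMA6A, SEMA6B and SEMA6D were higher in parental Panc89, and SEMA4B, SEMA4C, SEMA4F, SEMA4G, SEMA6C and SEMA7A were lower. SEMA6D averaged only 0.401 TPM in parental Panc89 and was tested only through the Panc89 Holoclone libraries. SEMA4B was the most abundant guidance gene of Panc1, at 431, 529 and 398 TPM in parental Panc1 and 72.3, 90.7 and 75.7 TPM in parental Panc89 (log2 fold change -2.49 ± 0.19, adjusted p = 1.09e-08). SEMA4F was at 12.2, 10.8 and 10.8 TPM and 0.832, 0.966 and 0.774 TPM (log2 fold change -2.72 ± 0.24, adjusted p = 8.00e-08). SEMA4A, by contrast, was at 0.168, 0.060 and 0.081 TPM in parental Panc1 and 8.13, 6.74 and 9.44 TPM in parental Panc89 (log2 fold change 3.04 ± 0.15, adjusted p = 7.13e-11). The groups did not overlap for these 3 genes. SEMA4G was listed at 0 in 7 of the 9 Panc89 libraries, and its exons overlap those of MRPL43 on the opposite strand.

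All 7 plexins tested differed between the parental lines. PLXNA2, a receptor of SEMA6A and of neuropilin-bound semaphorins, was at 0.27, 0.267 and 0.163 TPM in parental Panc1 and at 5.24, 4.88 and 6.01 TPM in parental Panc89 (log2 fold change 2.37 ± 0.18, adjusted p = 1.36e-08). PLXNB1, the receptor of SEMA4D, was higher in Panc89 (1.69) like SEMA4D itself (1.06), and so were PLXNB2 (1.2) and PLXNA1 (0.84). PLXND1, the receptor of SEMA3E, was lower (143 against 48.4 TPM, log2 fold change -1.51 ± 0.28, adjusted p = 1.92e-04), as were PLXNA3 (-1.22) and PLXNB3 (-0.75).

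The tested SLIT ligands also differed in opposite directions. SLIT3 was at 12.5, 11.3 and 11.8 TPM in parental Panc1 and at 0, 0.00525 and 0.00417 TPM in parental Panc89 (log2 fold change -3.68 ± 0.14, adjusted p = 2.14e-12). SLIT2 was listed at 0 in all 3 parental Panc1 libraries and was at 2.9, 1.72 and 3.01 TPM in parental Panc89 (log2 fold change 1.8 ± 0.27, adjusted p = 2.09e-05). SLIT3 exons overlap those of the antisense gene SLIT3-AS2. Of the receptors, ROBO1 was at 9.11 to 14.6 TPM in parental Panc1 and 10.1 to 11.7 TPM in parental Panc89 and did not pass the threshold (log2 fold change 0.04 ± 0.21, adjusted p = 0.889). ROBO3, a divergent member of the family, was at 44.3, 14.7 and 36.4 TPM in parental Panc1 and 2.53, 2.68 and 3.53 TPM in parental Panc89 (log2 fold change -2.94 ± 0.31, adjusted p = 6.24e-07).

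**Figure D3:**
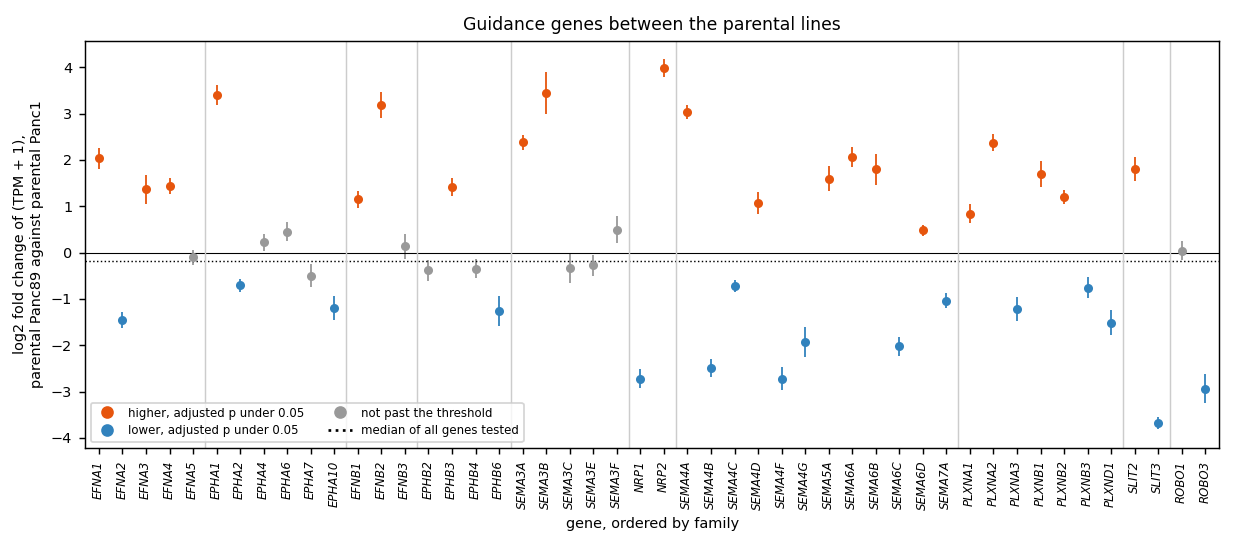
Log2 fold change of (TPM + 1) between parental Panc89 and parental Panc1 for the 48 guidance genes tested, ordered by family, with the standard error of the fit as bars and the median of all genes as a dotted line. The largest values are those of NRP2 (3.98) and SLIT3 (-3.68), and each neighbours a family member of the opposite sign (NRP1 and SLIT2).

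Signalling genes of these receptors and related guidance and VEGF genes were also compared, in a comparison that called 66.0% of all genes (27.5% higher, 38.5% lower). Of 22 tested Eph and ephrin signalling genes, 15 differed between the parental lines (6 higher in Panc89, 9 lower), among them CHN1, a Rac-inactivating protein used by EphA4 (-4.34). Of 23 semaphorin and plexin signalling genes, 18 differed (5 higher, 13 lower). The lower ones included MICAL2 (-2.61) and DPYSL4 (-2.94), while CRMP1, a collapsin response mediator, was higher (2.11). In the SLIT and ROBO signalling list 13 of 15 differed (4 higher, 9 lower), and in the netrin and RGM list 9 of 9 (5 higher, 4 lower), with NTN4 at 4.1 TPM in Panc1 and 40.6 TPM in Panc89 and the netrin receptor UNC5B at 1.92 and 37.2 TPM. Of 4 tested VEGF ligands and receptors of the neuropilin system, VEGFA (1.49) and VEGFC (1.94) were higher and PGF was lower (-1.28).

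Whether the difference extended to the clones was seen from all 9 libraries of each line. For 13 of the 48 genes (27.1%) all Panc89 libraries were above all Panc1 libraries, which held for 15.4% of all genes, and for 10 (20.8%) all were below, which held for 17.7% of all genes. The 13 were EFNA4, EFNB2, EPHA1, EPHA6, NRP2, PLXNA2, PLXNB2, SEMA3B, SEMA4A, SEMA4D, SEMA5A, SEMA6A and SLIT2. EPHA6 was not called between the parental lines, and its lowest Panc89 value was 0.254 TPM against at most 0.0999 TPM in Panc1. SEMA4A was separated only narrowly and near 0, with a lowest Panc89 value of 0.204 TPM, in the Paraclone, against at most 0.182 TPM in Panc1. The 10 were EFNA2, NRP1, PLXND1, ROBO3, SEMA4B, SEMA4C, SEMA4F, SEMA4G, SEMA6C and SLIT3. Among the genes of both lists, EPHA1, EPHA6, PLXNA2, SEMA4A, SEMA5A, SEMA6A, SLIT2, EFNA2, SEMA4G, SEMA6C and SLIT3 passed the filter only through the line where they were high. Their place in these counts therefore depends on the filter. Both neuropilins and both tested SLIT ligands are among these 23 genes. The remaining 25 genes overlapped between the lines when the clones were included, SEMA3A among them.

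**Figure D4:**
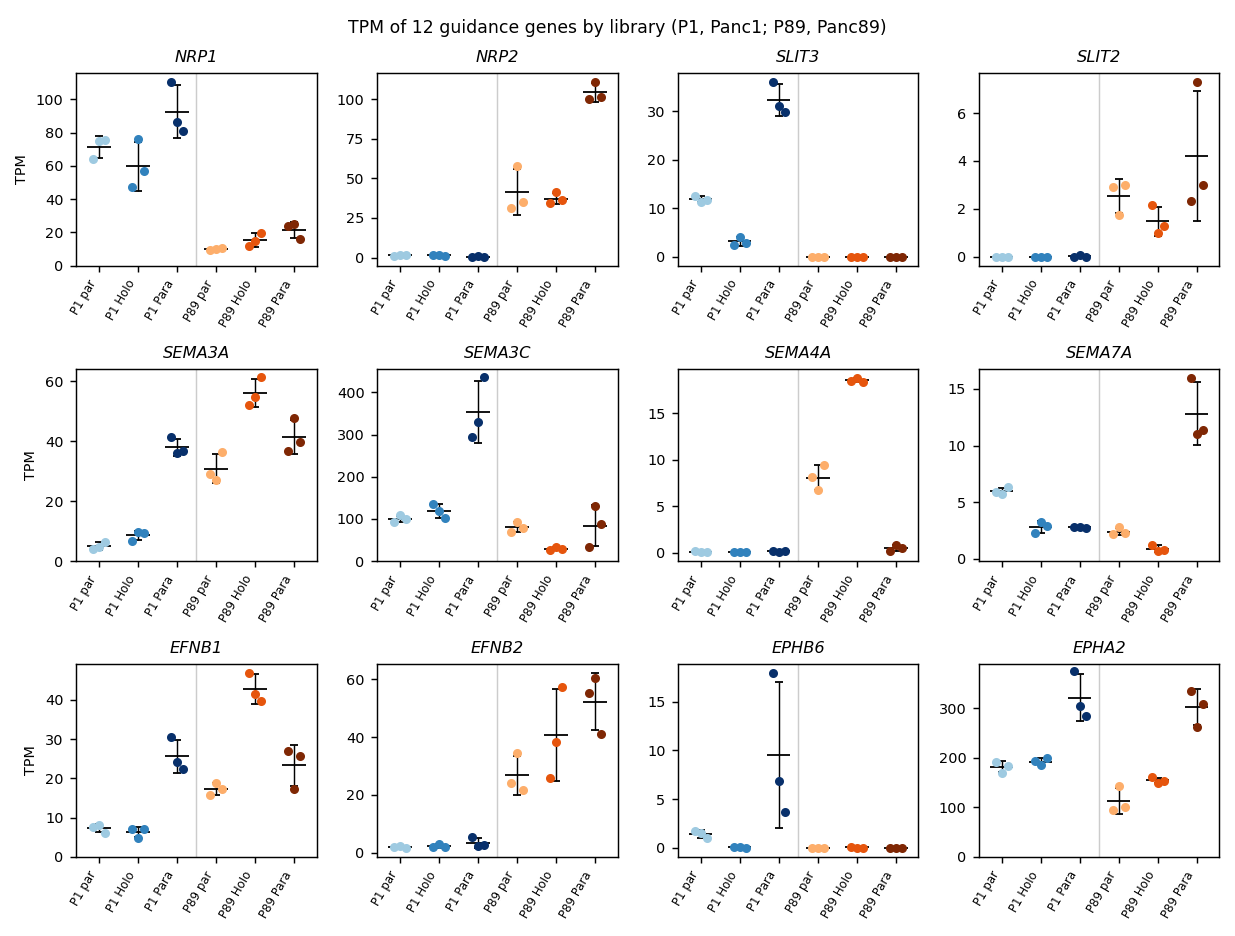
TPM of 12 guidance genes in the 18 libraries (points), with the mean (line) and SD (bars) of the 3 libraries of each group. Each panel has its own linear axis. NRP1 and SLIT3 were high in Panc1, NRP2, SLIT2 and EFNB2 in Panc89, SEMA4A in parental and Holoclone cells of Panc89, and EPHA2 in both Paraclones.

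The second comparison sets Holoclone against Paraclone cells within Panc1. Of the 48 genes, 23 (47.9%) differed, against 37.3% of all genes. In the Holoclone 9 were higher, against 27.4% of all genes, and 14 were lower, against 9.97% of all genes. The groups did not overlap for 26 of the 48 (51.3% of all genes). The median log2 fold change was -0.10 over the guidance genes and 0.19 over all genes. This split depends on the scaling, since the median of all genes moved to 0.00 under upper quartile scaling and to -0.0022 under median-of-ratios scaling, where 5 higher and 16 lower, and 6 higher and 18 lower guidance genes were called. Among called genes, 39.1% of guidance genes and 73.3% of all genes were higher in the Holoclone as reported. These shares were 23.8% and 47.2% under upper quartile scaling, and 25% and 46.6% under median-of-ratios scaling. No fold change of the 23 genes changed sign under either scaling.

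Most of the large changes were higher levels in the Panc1 Paraclone. SLIT3 was at 2.55, 4.2 and 2.81 TPM in the Holoclone and at 36, 31.1 and 29.8 TPM in the Paraclone (log2 fold change -3.01 ± 0.14, adjusted p = 1.82e-10). EPHB6 was at 0.10, 0.0881 and 0.0122 TPM and 18, 6.88 and 3.69 TPM (log2 fold change -3.06 ± 0.32, adjusted p = 3.04e-06). The Paraclone libraries differed widely from each other for EPHB6, but the lowest of them was above the highest Holoclone library. EFNB1 was at 7.16, 4.79 and 7.04 TPM in the Holoclone and 30.5, 24.1 and 22.4 TPM in the Paraclone (log2 fold change -1.87 ± 0.18, adjusted p = 1.19e-06).

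Several secreted semaphorins were lower in the Holoclone as well. SEMA3A was at 6.84, 9.66 and 9.41 TPM in the Holoclone and 41.3, 36.2 and 36.7 TPM in the Paraclone (log2 fold change -2.03 ± 0.17, adjusted p = 1.89e-07). SEMA3C was at 135, 118 and 103 TPM and 295, 329 and 435 TPM (log2 fold change -1.55 ± 0.33, adjusted p = 0.00153). SEMA3E, a ligand of PLXND1 that does not need a neuropilin, was at 1.5, 1.15 and 1.53 TPM and 6.09, 5.68 and 5.58 TPM (log2 fold change -1.51 ± 0.23, adjusted p = 1.11e-04). None of these groups overlapped. Of the 5 class 3 semaphorins tested, these 3 were lower in the Holoclone (9.97% of all genes were) and 0 were higher (27.4% of all genes), and SEMA3B (0.37) and SEMA3F (-0.48) did not pass the threshold. The membrane-bound SEMA4B showed the same order (264, 267 and 237 TPM in the Holoclone and 667, 616 and 639 TPM in the Paraclone, log2 fold change -1.32 ± 0.19, adjusted p = 5.63e-05). Receptors lower in the Holoclone were EPHA2 (-0.73), EPHA4 (-0.99), ROBO1 (-0.79), PLXNB2 (-0.76) and NRP1 (-0.63), and the remaining ligands were EFNA5 (-0.86) and EFNA4 (-0.60, not called without Paraclone replicate 2, adjusted p = 0.0588). The NRP1 call was lost without Holoclone replicate 1, Holoclone replicate 3 or Paraclone replicate 1 (adjusted p up to 0.123).

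Fewer guidance genes were higher in the Panc1 Holoclone. EFNA2 was at 7.49, 7.27 and 8.71 TPM in the Holoclone and at 1.75, 2.37 and 2.19 TPM in the Paraclone (log2 fold change 1.51 ± 0.17, adjusted p = 4.61e-06). Every Holoclone library was above every Paraclone library. EPHA7 (1.45), SEMA4D (1.2), EPHA10 (1.2), EFNB3 (0.99), PLXNB1 (0.92), NRP2 (0.71), SEMA4C (0.63) and EPHB3 (0.55) were the others. EFNB3, PLXNB1, SEMA4C and EPHB3 lost their calls under upper quartile scaling (adjusted p between 0.0534 and 0.115), and NRP2, PLXNB1 and EPHB3 under median-of-ratios scaling (between 0.0599 and 0.0908). Calls were also lost for EFNB3 without Holoclone replicate 1 (0.0519), for PLXNB1 without Holoclone replicate 1 or Paraclone replicate 1 (up to 0.0769) and for EPHB3 without any 1 of 5 libraries (up to 0.103). SEMA4D and its receptor PLXNB1 were higher together here as they were between the parental lines. The Paraclone libraries also held the SNAP25 and ACTA2 levels given above.

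In the same lists, to be read against 37.3% of all genes called (27.4% higher, 9.97% lower), 14 of 22 Eph and ephrin signalling genes differed (11 higher in the Holoclone, 3 lower), with CHN1 (4.14), the phosphatase PTPN13 (3.74) and the Src family kinase FYN (2.34) highest. Of the semaphorin and plexin list 12 of 23 differed (9 higher, 3 lower), of the SLIT and ROBO list 8 of 15 (5 higher, 3 lower), of the netrin and RGM list 6 of 9 (3 higher, 3 lower) and of the VEGF list 1 of 4 (VEGFC, -1.56). NTN4, a netrin, was higher in the Paraclone like SEMA3A, SEMA3C and SEMA3E, from 4.89 TPM in the Holoclone to 51.4 TPM (log2 fold change -3.16 ± 0.18, adjusted p = 2.54e-09).

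In Panc89, 26 of the 48 genes (54.2%) differed between Holoclone and Paraclone, against 35.7% of all genes. In the Holoclone 15 were higher, against 22.4% of all genes, and 11 were lower, against 13.3% of all genes. The groups did not overlap for 27 of the 48 (40.8% of all genes). The medians were 0.05 over the guidance genes and 0.09 over all genes. When these 2 groups were fitted alone, 17 guidance genes were called (11 higher, 6 lower), and 3377 of all genes instead of 5746.

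SEMA4A had the largest change. It was at 18.5, 18.9 and 18.4 TPM in the Holoclone and 0.204, 0.867 and 0.566 TPM in the Paraclone (log2 fold change 3.69 ± 0.15, adjusted p = 8.83e-11). SEMA5A, a semaphorin with thrombospondin repeats, was at 6.19, 11.8 and 19.9 TPM and 1.94, 3.62 and 2.61 TPM (log2 fold change 1.77 ± 0.27, adjusted p = 1.14e-04). SEMA6D, a ligand of PLXNA1, was higher as well (1.59), at 2.14 TPM in the Holoclone and 0.0409 TPM in the Paraclone. The SEMA6D call is not separate from the filter, which this gene passed only through these Holoclone libraries.

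Of the 3 A-type plexins tested, PLXNA1 and PLXNA2 were higher in the Holoclone and PLXNA3 was lower (-1.02). PLXNA1 was at 107, 106 and 98.7 TPM in the Holoclone and at 45.8, 38.8 and 40.9 TPM in the Paraclone (log2 fold change 1.29 ± 0.21, adjusted p = 1.83e-04). PLXNA2 was at 22.9, 17.2 and 14.7 TPM and 4.31, 6.34 and 3.63 TPM (log2 fold change 1.75 ± 0.18, adjusted p = 2.58e-06). The groups did not overlap for either plexin. ROBO3 was at 5.37, 5.13 and 6.99 TPM in the Holoclone and 1.24, 0.976 and 1.33 TPM in the Paraclone (log2 fold change 1.64 ± 0.31, adjusted p = 7.63e-04), ROBO1 was higher too (0.91), and EPHB2 was at 31.3, 22.8 and 15.5 TPM and 8.72, 9.27 and 6.58 TPM (log2 fold change 1.36 ± 0.22, adjusted p = 2.00e-04). The remaining genes higher in the Holoclone were SEMA3E (0.99), EFNB1 (0.87), EPHA7 (0.80), EFNB3 (0.78), PLXNB3 (0.76), SEMA4D (0.65) and PLXNB2 (0.42). EPHA7, EFNB3, PLXNB3, SEMA4D and PLXNB2 each lost the call when at least 1 library was left out, PLXNB3 only without Paraclone replicate 3 (adjusted p = 0.0581) and the others without any 1 of 3 to 5 libraries.

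SEMA7A led the genes that were higher in the Panc89 Paraclone. This semaphorin with a lipid anchor was at 1.26, 0.662 and 0.755 TPM in the Holoclone and at 16, 11 and 11.4 TPM in the Paraclone (log2 fold change -2.86 ± 0.16, adjusted p = 2.83e-09), while its receptor PLXNC1 was at most 0.424 TPM in all libraries. NRP2 was at 34.2, 41.1 and 36.4 TPM and 100.4, 111 and 102 TPM (log2 fold change -1.46 ± 0.19, adjusted p = 2.98e-05). PLXND1 was at 17.5, 10.6 and 6.94 TPM and 49.4, 30.4 and 44.7 TPM (log2 fold change -1.8 ± 0.28, adjusted p = 1.28e-04). Each of these 3 genes was higher in every Paraclone library than in any Holoclone library.

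EFNA1 was at 20.5, 18.7 and 18.4 TPM in the Panc89 Holoclone and at 55, 31.7 and 57.8 TPM in the Paraclone (log2 fold change -1.24 ± 0.22, adjusted p = 5.11e-04), and EPHA2 was lower in the Holoclone as well (154 against 303 TPM, log2 fold change -0.96 ± 0.14, adjusted p = 8.68e-05). SEMA3C was at 26.1, 33 and 29.3 TPM and 33.7, 130.2 and 88.2 TPM (log2 fold change -1.29 ± 0.33, adjusted p = 0.00608), and its lowest Paraclone library was just above its highest Holoclone library. SEMA3B was at 15.9, 34.3 and 33.3 TPM and 171, 40.9 and 84.7 TPM (log2 fold change -1.64 ± 0.45, adjusted p = 0.0103). Paraclone replicate 1 decides the SEMA3B value: without it the log2 fold change was -1.13 with an adjusted p of 0.0618. The SEMA3B and SEMA3C calls were also lost when the 2 groups were fitted alone (adjusted p = 0.101 and 0.12). PLXNA3 (-1.02), SLIT2 (-0.98), SEMA4C (-0.78) and EPHA1 (-0.64) were lower in the Holoclone too, and the EPHA1 call was lost without any 1 of 5 libraries (adjusted p up to 0.163).

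In these lists, to be read against 35.7% of all genes called (22.4% higher, 13.3% lower), 11 of 22 Eph and ephrin signalling genes differed in Panc89 (8 higher in the Holoclone, 3 lower), led by FYN (4.2), PTPN13 (2.35) and SRC (1.87). Of the semaphorin and plexin list 13 of 23 differed (10 higher, 3 lower), with CRMP1 (3.36) and the cofilin kinase LIMK2 (2.65) highest. Of the SLIT and ROBO list 7 of 15 differed (3 higher, 4 lower), of the netrin and RGM list 6 of 9 (4 higher, 2 lower, UNC5B 2.58) and of the VEGF list 4 of 4 (VEGFA 1.44, PGF 1.59, VEGFB -0.50 and VEGFC -0.73).

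The difference between the lines in the Holoclone against Paraclone change was tested directly. It passed the threshold for 26 of the 48 genes (54.2%), against 35.1% of all genes. The change was more positive in Panc89 for 17 of them (14.8% of all genes) and more negative for 9 (20.4% of all genes), with medians of 0.30 over the guidance genes and -0.11 over all genes (under upper quartile scaling 0.08 over all genes, with 19 more positive and 7 more negative guidance genes). Among called genes, 65.4% of guidance genes and 42% of all genes were more positive as reported, and 73.1% and 58.1% under that scaling. Taking the lines separately, 5 genes were called in the same direction in both, 6 in opposite directions, 12 in Panc1 only and 15 in Panc89 only. The difference itself was called for 8 of the 12 and for 12 of the 15, so that for the other 7 genes a call in 1 line and none in the other does not show that the lines differed. These patterns were not counted over all genes. Their numbers therefore describe the guidance genes and do not set them apart from other genes.

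EFNB1, SEMA3E, ROBO1, PLXNB2, NRP2 and SEMA4C were the 6 genes called in opposite directions, and the difference passed the threshold for each. EFNB1 fell by 1.87 in the Panc1 Holoclone relative to its Paraclone and rose by 0.87 in the Panc89 Holoclone (difference 2.74 ± 0.26, adjusted p = 9.88e-07). SEMA3E fell by 1.51 and rose by 0.99 (difference 2.5, adjusted p = 2.83e-05), and ROBO1 fell by 0.79 and rose by 0.91 (difference 1.7, adjusted p = 3.14e-04). PLXNB2 followed the same order, although its change in Panc89 (0.42, adjusted p = 0.049) lost the call under both other scalings and without any 1 of 5 libraries (up to 0.179). NRP2 went the other way, rising by 0.71 in the Panc1 Holoclone and falling by 1.46 in the Panc89 Holoclone (difference -2.17, adjusted p = 2.11e-05), and so did SEMA4C (difference -1.41, adjusted p = 2.50e-05). In Panc1 the NRP2 call was lost under median-of-ratios scaling (adjusted p = 0.0599) and the SEMA4C call under upper quartile scaling (0.115), while the difference between the lines kept its call for both genes under both scalings. In TPM, NRP2 stood at 1.57 and 0.576 in Holoclone and Paraclone of Panc1, and at 37.2 and 104 in those of Panc89.

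EPHA2, SEMA3C, SEMA4D, EPHA7 and EFNB3 were the 5 genes called in the same direction in both lines. EPHA2, a receptor often high in carcinomas, was at 193, 185 and 199 TPM in Holoclone and 375, 305 and 285 TPM in Paraclone cells of Panc1. In Panc89 it was at 161, 149.9 and 152 TPM and 335, 263 and 309.7 TPM. Every Paraclone library of either line was above every Holoclone library of both. The change was -0.73 ± 0.14 in Panc1 and -0.96 ± 0.14 in Panc89, and their difference was -0.23 with an adjusted p of 0.416. SEMA3C fell in both Holoclones (-1.55 and -1.29), and SEMA4D rose in both (1.2 and 0.65). The Panc89 call was lost for SEMA3C when the 2 groups were fitted alone (adjusted p = 0.12) and for SEMA4D under upper quartile scaling (0.0646). It was also lost without any 1 of 3 libraries for EPHA7 (up to 0.0768) and SEMA4D (up to 0.22), and without any 1 of 5 for EFNB3 (up to 0.152). In Panc1 the EFNB3 call was lost under upper quartile scaling (0.0534) and without Holoclone replicate 1 (0.0519).

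Several genes moved in 1 line where their level in the other was close to 0. SLIT3 and EPHB6 were at most 0.101 TPM in every Panc89 library, and SEMA4A and SEMA5A at most 0.182 TPM in every Panc1 library, so that the differences of 3.01, 3.1, 3.78 and 1.79 are those of 1 line alone. SEMA3A and SEMA7A were instead at 0.662 TPM or more in every library. SEMA3A was -2.03 in Panc1 and 0.43 in Panc89 (difference 2.46, adjusted p = 1.22e-06). SEMA7A was 0.00 in Panc1 and -2.86 in Panc89 (difference -2.86, adjusted p = 1.50e-07).

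**Figure D5:**
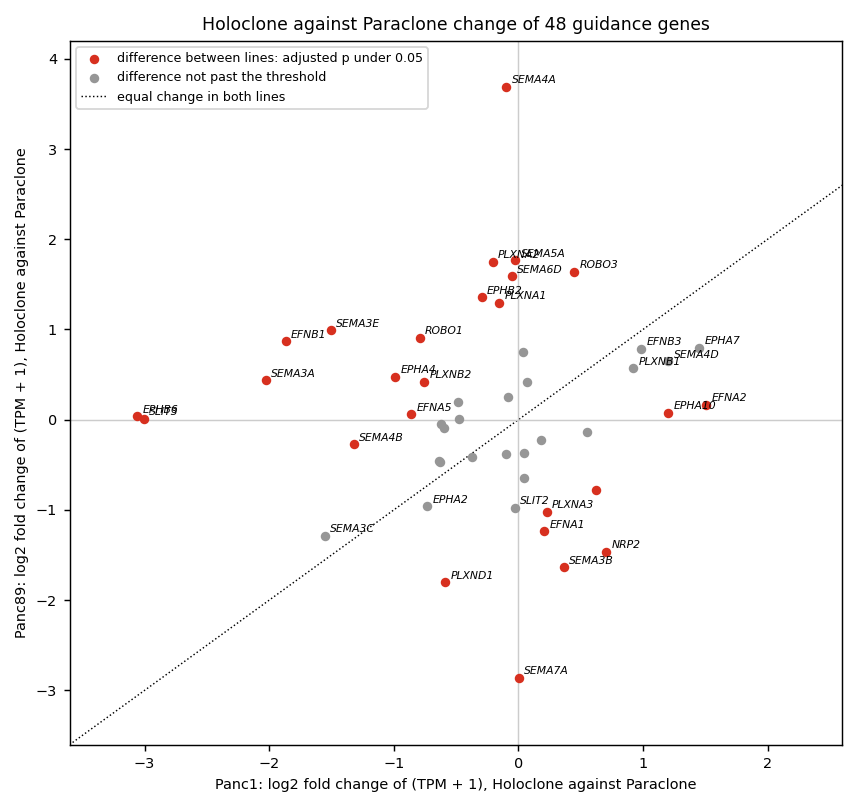
Log2 fold change of (TPM + 1) between Holoclone and Paraclone for the 48 guidance genes tested, in Panc1 (x axis) and Panc89 (y axis), with genes in red where the difference between the lines passed the threshold. SLIT3 and EPHB6 lie at the left edge near 0 on the y axis, SEMA4A and SEMA7A at the top and bottom near 0 on the x axis, and SEMA3C and EPHA2 near the dotted line of equal change.

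Each clone was also set against its parental line, in comparisons that share their parental and clonal libraries with those above and with each other. In the Panc1 Holoclone 7 of 48 genes (14.6%) differed from parental Panc1, 3 higher and 4 lower (10.9%, 5.87% and 5.06% of all genes), or 4 in all without Holoclone replicate 3 (1023 of all genes instead of 1759). In the Panc1 Paraclone 21 (43.8%) differed, 13 higher and 8 lower (28.6%, 7.31% and 21.3% of all genes), or 15 higher and 4 lower under median-of-ratios scaling, which moved the median of all genes from -0.17 to 0. Among called genes, 61.9% of guidance genes and 25.6% of all genes were higher as reported, and 78.9% and 55.4% under this scaling. In Panc89, 20 (41.7%) differed in the Holoclone, 11 higher and 9 lower (24.7%, 16.1% and 8.61% of all genes), and 18 (37.5%) in the Paraclone, 9 higher and 9 lower (19.4%, 9.37% and 10.0% of all genes). This last count was 8 without parental replicate 1, 9 without parental replicate 3, 10 without Paraclone replicate 1 and 12 without Paraclone replicate 3, and 9 of the 18 calls were lost without at least 1 library. Calls over all genes fell as well, from 3120 to 2072, 2055, 2162 and 2301 in these fits.

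In Panc1, SLIT3 was below the parental level in the Holoclone (log2 fold change -1.64 ± 0.14, adjusted p = 1.13e-06) and above it in the Paraclone (log2 fold change 1.37 ± 0.14, adjusted p = 2.32e-06). EPHB6 had the same order, with -1.18 in the Holoclone (adjusted p = 0.0277, lost without any 1 of 5 libraries) and 1.88 in the Paraclone (adjusted p = 5.39e-04, and 0.0564 when these groups were fitted alone). SEMA3A was higher in both clones, by 0.65 in the Holoclone (lost without any 1 of 4 libraries) and 2.68 in the Paraclone. The Paraclone was above parental cells for SEMA3C (1.79), EFNB1 (1.68) and SEMA3E (1.19), for which the Holoclone did not pass the threshold (0.23, -0.18 and -0.31). PLXNA1, a receptor for SEMA3A with NRP1, was higher in both clones (0.92 and 1.07), and SEMA7A was lower in both (-0.89 and -0.89).

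In Panc89, SEMA4A was above the parental level in the Holoclone (log2 fold change 1.12 ± 0.15, adjusted p = 5.74e-05) and below it in the Paraclone (log2 fold change -2.57 ± 0.15, adjusted p = 1.70e-08), and SEMA7A was below it in the Holoclone (log2 fold change -0.86 ± 0.16, adjusted p = 9.09e-04) and above it in the Paraclone (log2 fold change 2.0 ± 0.16, adjusted p = 4.80e-07). SEMA5A (2.02), PLXNA2 (1.58) and EFNB1 (1.26) were higher in the Holoclone than in parental cells. PLXND1 (-2.05), EFNA1 (-1.66) and SEMA3C (-1.41) were lower in it. In the Paraclone EPHA2 (1.43), NRP2 (1.36) and NRP1 (1.01) were higher than in parental cells and EPHB2 was lower (-1.26). SEMA3B was higher as well (log2 fold change 1.54 ± 0.45, adjusted p = 0.0255), but its call was lost without Paraclone replicate 1 (98.7 TPM is the mean with it, and the log2 fold change without it was 1.03, adjusted p = 0.142) and without 3 other libraries. EPHB3 was lower in both Panc89 clones (-1.59 and -1.45), as was EFNA5 (-0.92 and -0.98). The EPHB3 calls depend on the filter, which this gene passed only through the parental Panc89 libraries. The endothelial and immune marker sums given above also differed between parental and clonal Panc89 cells.

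The mean of parental cells lay between those of the 2 clones for 27 of 48 guidance genes in Panc1 (56.2%, against 48.7% of all genes) and for 22 in Panc89 (45.8%, against 45.7% of all genes). In Panc1 it was above both clones for 9 genes (18.8%, against 32.9% of all genes) and below both for 12 (25%, against 18.5%). In Panc89 it was above both for 12 (25%, against 24.3%) and below both for 14 (29.2%, against 30%).

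Exons of 20 of the 60 genes overlap exons on the opposite strand and those of 7 overlap another gene on the same strand (GENCODE 44, GRCh38), among them EFNA3 and EFNA4 with their readthrough, EPHA1 with ZYX, EPHB4 with SLC12A9, SEMA3B with SEMA3B-AS1 and PLXNB3 with SRPK3. The libraries were stranded, but whether the quantification used the strand is not given in the sources used here, so reads of such partners may not be fully separated.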

How the data were processed

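RNA of 3 passages of each cell variant was sequenced by the authors (stranded mRNA libraries, paired-end, NovaSeq), quantified with kallisto 0.46.1 against Ensembl GRCh38 and imported with tximport as scaled TPM. The authors deposited 1 table of log2(TPM + 1) values for 40266 symbols and 18 libraries, which were raised back to TPM here and sum to 985339 to 988066 per library. TPM keep no depth, so counting errors are unknown and no limit for a value of 0 can be given. The authors' own tests (DESeq2 with apeglm, GAGE) were not used here.

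Groups were taken from the deposited labels. Group means of log2(TPM + 1), pseudocount 1, were compared with limma 3.58.1 in R 4.3.3 (lmFit, eBayes with trend, all 18 libraries in 1 fit) for the 16093 genes that reached 1 TPM in 3 or more libraries. Adjusted p-values are two-sided, corrected by Benjamini-Hochberg over all these genes in each comparison, with a threshold of 0.05. The code was tested on simulated data. Members, gene lists and tests were chosen with earlier results of these data known. Per-library values are given for members past the threshold with an absolute log2 fold change of at least 1, no overlap of the groups and at least 5 TPM in the higher group, up to 12 per comparison, and for others chosen after their values were seen: EFNA1, EPHA2, EPHA3, EPHA6, EPHB3, EPHB6, EFNB1, SEMA3D, SEMA6D and SLIT2 in comparisons where they did not meet this rule. The pathway genes named with a value are those with large changes in their list. Same-numbered libraries of a line did not deviate together (correlations from -0.318 to 0.190, mean -0.0418 over 18 pairs, 3 of them over 0.1), so no pairing was used. Positions come from GENCODE 44 and promoters from RefSeq. Alternatives covered the pseudocount, the filter, the scaling, the groups fitted, the replicate block, the trend, the thresholds and each library left out.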

Additional observations from a re-analysis of the deposited data

Results flagged for a closer look

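For 26 of the 48 guidance genes tested, the Holoclone against Paraclone change differed between the lines by the test of that difference (limma, adjusted p under 0.05), which 35.1% of all genes did. Values are the log2 change in Panc89 minus that in Panc1.

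Among the ephrins and Eph receptors the difference was 3.1 for EPHB6, 2.74 for EFNB1, 1.65 for EPHB2, 1.46 for EPHA4, 0.92 for EFNA5, -1.12 for EPHA10, -1.35 for EFNA2 and -1.44 for EFNA1. Among the semaphorins it was 3.78 for SEMA4A, 2.5 for SEMA3E, 2.46 for SEMA3A, 1.79 for SEMA5A, 1.64 for SEMA6D, 1.05 for SEMA4B, -1.41 for SEMA4C, -2.0 for SEMA3B and -2.86 for SEMA7A. SEMA6D passed the filter for testing only through the Panc89 Holoclone libraries, so its call depends on that filter. The semaphorin receptors gave 1.95 for PLXNA2, 1.44 for PLXNA1, 1.17 for PLXNB2, -1.21 for PLXND1, -1.25 for PLXNA3 and -2.17 for NRP2. SLIT3 reached 3.01, ROBO1 1.70 and ROBO3 1.19.

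Leaving out 1 of the 12 clonal libraries at a time ended the call of 4 of these genes. ROBO3 (adjusted p = 0.0482) lost it without any library other than Panc1 Paraclone replicate 1, with an adjusted p up to 0.114. PLXND1 lost it without any 1 of 7 libraries (up to 0.0682), EPHA10 without any 1 of 6 (up to 0.0776) and SEMA3B without any 1 of 4 (up to 0.0626), namely Panc1 Holoclone replicate 1, Panc1 Paraclone replicate 1, Panc89 Holoclone replicate 1 and Panc89 Paraclone replicate 1. The other 22 genes kept their call in all 12 cases. Other settings also ended calls of these 4 genes, and a pseudocount of 0.1 ended that of EFNA2 (adjusted p = 0.0611). EPHA10 and PLXND1 lost theirs under upper quartile scaling (adjusted p = 0.0583 and 0.0613), EPHA10, PLXND1 and ROBO3 with no filter on low values (0.0529, 0.0519 and 0.0884), and PLXND1 and SEMA3B when the groups compared were fitted alone (0.0514 and 0.0575).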

How the results depend on the processing

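The counts of guidance genes called stayed within 1.5 times the reported ones in 71 of 80 alternative settings and in 50 of 54 fits without 1 library, and none of the fold changes of single named genes changed sign (617 of 634 kept their side of the threshold, and 600 of 633 without 1 library). A threshold of 1 on the absolute log2 fold change left 11 genes in Panc1 and 14 in Panc89 for Holoclone against Paraclone, and against parental cells 2 in the Panc1 Holoclone, 9 in the Panc1 Paraclone, 9 in the Panc89 Holoclone and 9 in the Panc89 Paraclone. Over all genes this threshold left 1860, 2124, 516, 1279, 1369 and 1184 in the same order. An adjusted p under 0.01 left 4 in the Panc1 Holoclone and 9 in the Panc89 Paraclone, each against parental cells (930 and 1820 of all genes). The Panc89 Holoclone against Paraclone count was 17 when these groups were fitted alone (3377 of all genes instead of 5746). Without 1 library, the Panc1 Holoclone against parental count ranged from 4 (Holoclone replicate 3 left out) to 8, and the Panc89 Paraclone against parental count from 8 (parental replicate 1) to 19, with 9 without parental replicate 3 and 10 without Paraclone replicate 1. At the lowest of these counts the calls over all genes were fewer too (1023 instead of 1759, and 2072 instead of 3120). In the same fits the parental comparison ranged from 36 to 38.

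With the replicate block within each line the counts were 37 between parental lines, 21 and 23 for Holoclone against Paraclone in Panc1 and Panc89, 24 for the difference between the lines, 7 and 20 for Holoclone and Paraclone against parental Panc1, and 17 and 14 against parental Panc89. Calls over all genes were fewer in each comparison, at 8939, 5553, 5211, 5095, 1402, 3978, 3408 and 2693 in the same order. As reported they were 10623, 6006, 5746, 5655, 1759, 4599, 3981 and 3120. The replicate numbers share only a number and do not pair the libraries. Under the block the calls of ROBO3 and SEMA3B for the difference between the lines (adjusted p = 0.0503 and 0.0544) and of SEMA3B for the Panc89 Paraclone against parental cells (0.063) were lost. A pseudocount of 0.1 ended the calls of EFNA2 for the difference between the lines (0.0611) and of SEMA3B for the Panc89 Paraclone against parental cells (0.0822). The cause of these changes was not tested. Depth is unknown, each group has 3 passages, and each clonal group stands for 1 clone, which limits all values.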

Other observations

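Some guidance genes at low levels were also unequal between the groups. SEMA6A, a transmembrane semaphorin, was at most 0.338 TPM in Panc1 and at 3.02 to 4.21 TPM in parental, 5.8 to 7.3 TPM in Holoclone and 3.83 to 8.57 TPM in Paraclone cells of Panc89, while SEMA6C lay at 2.72 to 5.85 TPM in Panc1 and at 0.113 to 0.716 TPM in Panc89. SEMA6D was highest in the Panc89 Holoclone (2.21, 1.74 and 2.46 TPM) and at most 0.524 TPM in any other library. EPHA6 had its highest value there too (2.19, 1.07 and 1.12 TPM), although Paraclone replicate 2 of Panc89 reached 1.66 TPM. EPHA3 and SEMA3D, which were not tested, likewise had their highest values in the Panc89 Holoclone. EPHB3 was at 2.56, 5.87 and 3.21 TPM in parental Panc89 and at most 0.856 TPM in every other group.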
